A study of Mus musculus with 12 samples.

Results

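The genes described here encode 4 kinds of lysosomal protein: the hydrolases, the non-enzyme proteins of the lumen, the proteins of the limiting membrane and the subunits of the proton pump, the V-ATPase. They were picked by symbol, with earlier results of these data known. All 46 symbols were found among the 24391 of the deposited count table. The members are 18 hydrolases, 3 luminal proteins without enzyme activity, 10 membrane proteins and 15 V-ATPase genes, of which 5 belong to the V0 sector, 8 to the V1 sector and 2 are accessory. The cathepsins, a family of lysosomal proteases, are not among them.

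RNA-seq was run on 12 libraries of CD11b dendritic cells (DCs), the subset of these antigen-presenting cells that bears the integrin CD11b. The mice were wild-type C57BL/6J animals of 8 to 12 weeks, and all of them had received a replication-deficient adenovirus in the airway through the trachea. The virus either was empty (AdCL) or carried the gene for porcine TGF-β1 in an active form (AdTGFb1), a model that the series title describes as established pulmonary fibrosis. Experiment 1 held AdCL DC 7, 8 and 9 and AdTGFb1 DC 14, 52 and 54, and experiment 3 held AdCL DC 943, 944 and 949 and AdTGFb1 DC 954, 955 and 956. Values of 1 group are given in that order throughout. No group without virus was analysed here. The sources used here do not give the organ, the sorting gate, the time after the virus, the sex of the mice or whether each library is a separate animal, so the p-values measure the spread between these libraries.

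Lysosomes are the acidic organelles in which cells digest material taken up from outside and worn parts of their own. Soluble hydrolases each cut 1 type of bond in sugars, lipids or proteins, activator proteins in the lumen present substrates to them, and heavily glycosylated membrane proteins line and protect the organelle and carry products out. The V-ATPase acidifies the lumen: its V1 sector, in the cytosol, splits ATP, and its V0 sector, in the membrane, carries the protons. In DCs the lysosomal compartment is where antigen is cut for loading onto MHC class II molecules, and DCs are known to digest more slowly than macrophages. Many lysosomal genes carry copies of an E-box in the promoter that is bound by the related factors TFEB, TFE3, MITF and TFEC.

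Libraries held 10099912 to 15594546 counts, at which 3 counts correspond to 0.181 to 0.31 CPM (counts scaled to the depth of a library, with the factors of the trimmed mean of M-values method, TMM). Xist and the Y-linked Ddx3y marked 4 libraries as male and 8 as female. All 3 AdCL libraries of experiment 1 were male, 1 of its 3 AdTGFb1 libraries (DC 14) was male, and all of experiment 3 was female. For the AdCL libraries, sex and experiment therefore cannot be told apart. The label was checked on 15 markers of CD11b DCs, none of which was at 0 in all libraries, and their summed level was 34429 to 38586 CPM in AdCL and 22108 to 27243 CPM in AdTGFb1 libraries of experiment 1 and 33534 to 44769 and 28292 to 35716 CPM in experiment 3. Genes were called with edgeR's quasi-likelihood F test, with p adjusted by the Benjamini-Hochberg method over all genes tested and a threshold of 0.05. With AdTGFb1, 9 of these 15 fell and 1 rose. Of 15 markers of macrophages and monocytes, 13 rose and 0 fell, and their summed level was 5562 to 6833, 13795 to 17194, 9813 to 12829 and 19817 to 23718 CPM in the same order of groups.

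With AdTGFb1 the lysosomal genes were mostly higher: hydrolases held most of the calls and membrane proteins fewer, and the V-ATPase was called at shares near those of all genes. Of the 46 members, 45 passed the filter on low counts, and Atp6v0c did not. Over both experiments 16 of the 45 rose (35.6%), beside 6.78% of the 13221 genes tested, and 4 fell (8.89%), beside 10.4%. On total counts without scaling factors 23 members rose and 2 fell. There the median log2 fold change of all genes moved to 0.165, and calls over all genes went from 2271 to 2500. With scaling factors the median log2 fold change of the members was 0.32, beside 0.00 for all genes, and 37 of 45 were positive. By class, 10 of 18 hydrolases rose and 2 fell (median 0.62), 2 of 3 luminal proteins rose (0.67), 3 of 10 membrane proteins rose with all 10 positive (0.30), and of 14 V-ATPase genes 1 rose and 2 fell (7.14% and 14.3%, median 0.02, range -0.55 to 0.42), or 2 and 1 on total counts and 0 and 0 with a term for sex or without the AdCL libraries of experiment 1. Differences between classes were not tested. In 5 members every AdTGFb1 library lay above every AdCL library, beside 1.86% of genes, and in 1 every one lay below, beside 4.46%.

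In bulk libraries such as these, fewer cells of a type and less RNA per cell cannot be told apart, and the macrophage markers named above moved with the same contrast. Their part in the lysosomal result was not tested. With a term for sex, 10 members rose and 1 fell, and without the 3 AdCL libraries of experiment 1 it was 4 and 1. Calls over all genes, higher and lower together, also went down, from 2271 to 1501 and 882 in these 2 settings. The 10 that rose with a term for sex include Scarb2, which was not called without that term. Leaving out AdCL DC 7 or 9 or AdTGFb1 DC 14, 52, 54 or 956 took the count of members that fell from 4 to 2.

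**Figure D1:**
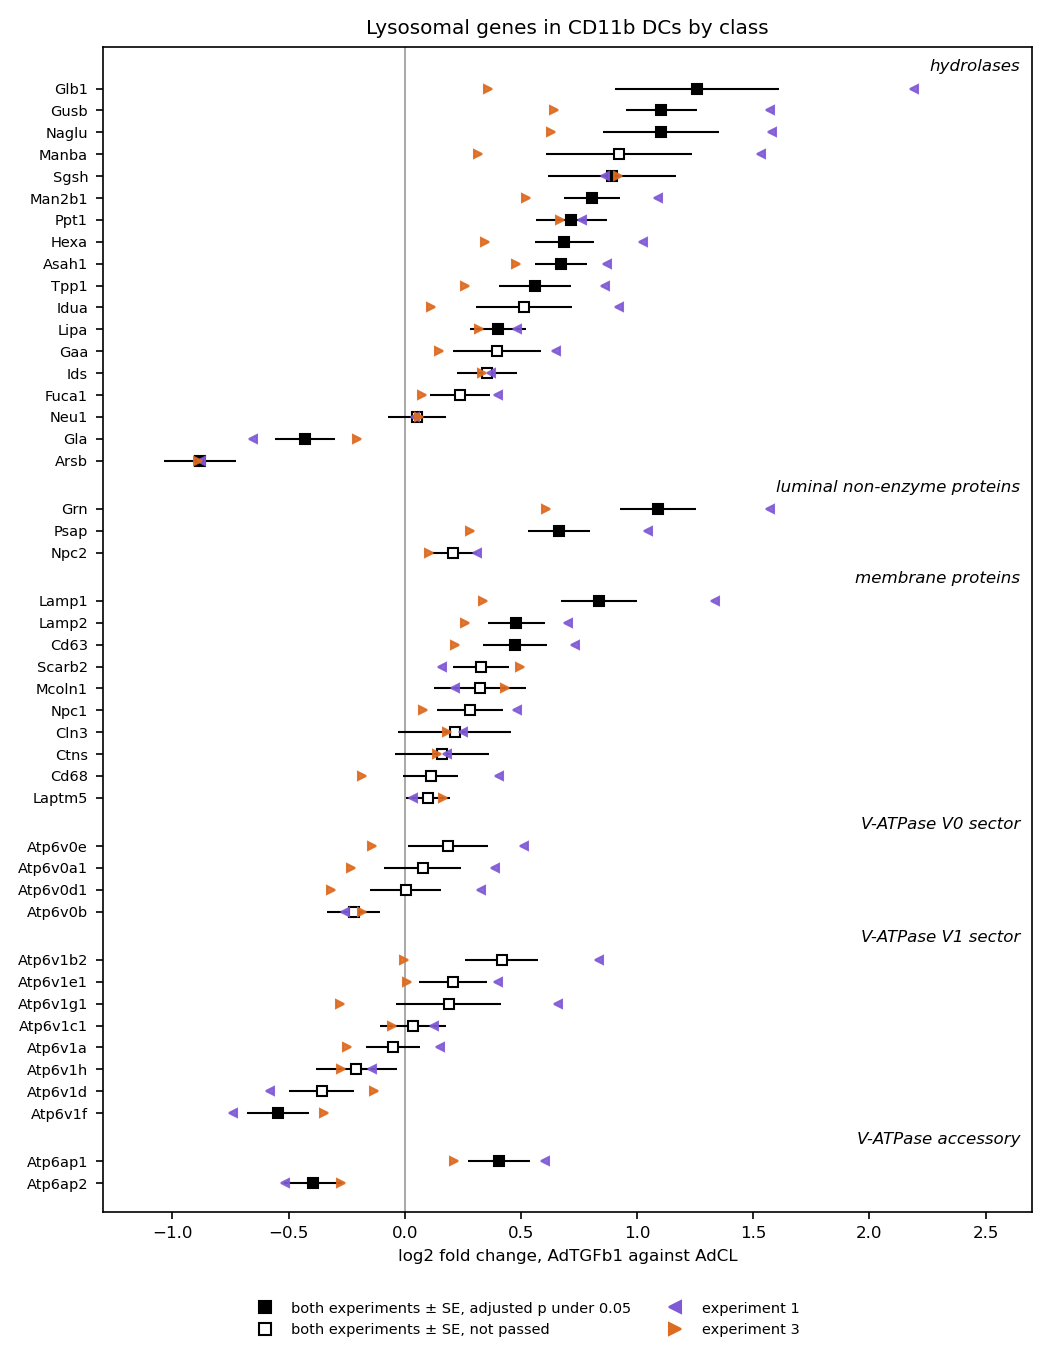
Log2 fold change of AdTGFb1 against AdCL (x axis) for the 45 members tested (y axis), grouped by class; squares with bars are the estimate over both experiments ± SE, filled where the adjusted p was under 0.05, and triangles are the estimates within experiment 1 and experiment 3. Glb1, Gusb and Naglu lie at the top at 1.26, 1.10 and 1.10, Arsb lies lowest at -0.88, and the V-ATPase genes lie on both sides of 0.

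Levels were also summed over each class. The 18 hydrolases together reached 1474, 1500 and 1524 CPM in AdCL and 2378, 2201 and 2483 CPM in AdTGFb1 libraries of experiment 1, and 2015, 1778 and 1865 and 2589, 2331 and 2154 CPM in experiment 3. The means were 1.57 times as high with AdTGFb1 in experiment 1 and 1.25 times as high in experiment 3, with no overlap between vectors in either. Grn, Psap and Npc2 together gave ratios of 2.05 and 1.23 and the 10 membrane proteins 1.39 and 1.12. The V-ATPase genes summed to 1401, 1427 and 1397 CPM in AdCL and 1384, 1512 and 1510 CPM in AdTGFb1 libraries of experiment 1, where the vectors overlapped, and to 1431, 1422 and 1381 and 1311, 1288 and 1179 CPM in experiment 3, where all 3 AdTGFb1 libraries were the lower. These ratios were 1.04 and 0.892. Within the pump, the V0 sum went from a mean of 317 to 378 CPM in experiment 1 and from 414 to 353 CPM in experiment 3, and the V1 sum from 845 to 860.4 and from 772 to 691 CPM. Sums are led by their most abundant genes and were not tested.

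**Figure D2:**
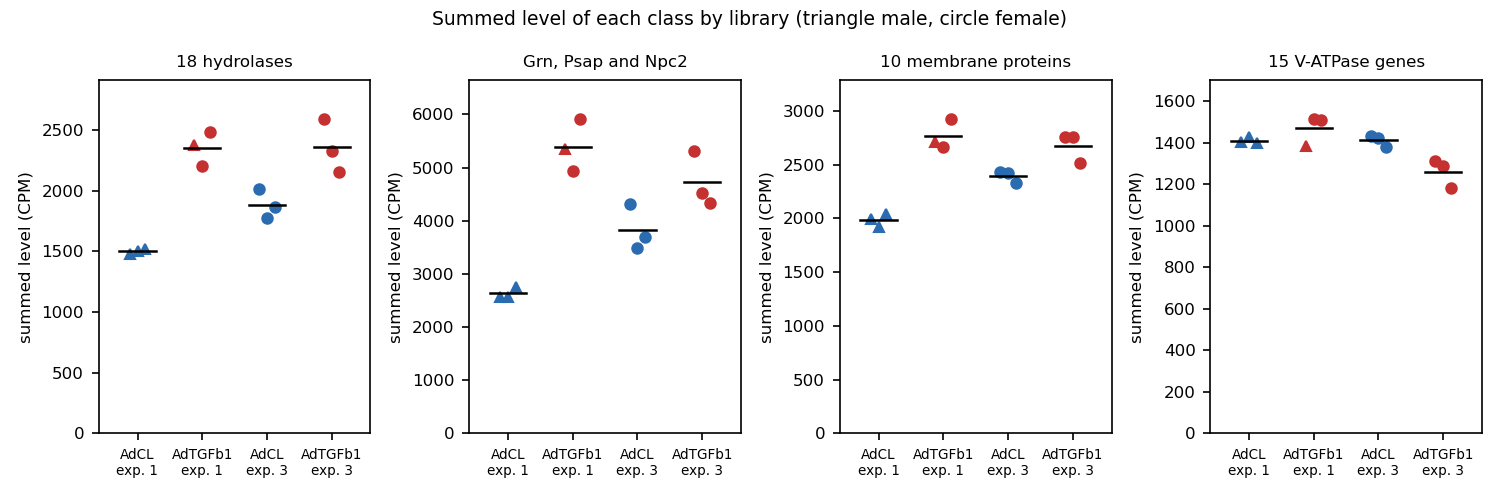
Summed level in CPM (y axes, from 0) of the 4 classes in each library by vector and experiment (x axes); males are triangles, females circles, and each line is the mean of 3. Hydrolases, luminal and membrane proteins lie higher with AdTGFb1 in both experiments, while the V-ATPase sums lie between 1179 and 1512 CPM in all 12 libraries.

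Promoters were read from RefSeq (mouse build GRCm38.p6, another build than the mm9 of the counts), as windows of 250 bases before to 50 after each gene's start. Of the 46 members 40 had a window. The E-box was searched as CACGTG, which reads the same on both strands, and in the longer form TCACGTGA, which holds it and is likewise the same on both strands. CACGTG was found in 12 of the 40 genes (30%), beside 11.6% of the 9942 tested genes with a window and 8.09% of all 27025 genes with one. TCACGTGA was found in 6 of 40 (15%), beside 2.14% of those tested genes and 1.12% of all genes with a window. Of 11 V-ATPase genes 4 held CACGTG and 3 TCACGTGA, and of 17 hydrolases 5 and 1. A 10-base form, TCACGTGA with G before and C after it, was in 1 of 40 members (2.5%), a membrane protein, beside 0.785% of the tested genes. Among members that rose, 4 of 15 held CACGTG and 0 of 15 TCACGTGA, among those that fell 1 of 4 held both, and among those that did not pass 7 of 20 and 5 of 20. A match is a run of letters and not a measured binding site.

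The stretches that hold these matches are shown for the 4 members that rose and have one (Lamp1 with 4 copies, Glb1, Naglu and Sgsh), for the 1 that fell (Gla) and for 3 of the 7 that did not pass (Mcoln1, Cln3 and Atp6v1a), so that the letters can be set against the values that follow. These 3 all hold TCACGTGA. Of those not shown, Gaa and Atp6v0b hold only CACGTG, and Atp6v0d1 and Atp6v0e hold TCACGTGA. Each stretch shown is written 5′ to 3′ along the gene's strand, with CACGTG or TCACGTGA in capitals. Lamp1 is at chr8:13159060-13159160, plus strand, Glb1 at chr9:114400990-114401075, plus strand, Naglu at chr11:101069981-101070066, plus strand and Sgsh at chr11:119355511-119355579, minus strand. Gla is at chrX:134601154-134601255, minus strand, Mcoln1 at chr8:3500408-3500518, plus strand, Cln3 at chr7:126583312-126583425, minus strand and Atp6v1a at chr16:44139345-44139430, minus strand.
Lamp1: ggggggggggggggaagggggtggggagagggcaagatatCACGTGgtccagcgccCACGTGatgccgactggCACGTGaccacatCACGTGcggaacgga
Glb1: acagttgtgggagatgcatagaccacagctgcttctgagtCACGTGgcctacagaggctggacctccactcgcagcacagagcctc
Naglu: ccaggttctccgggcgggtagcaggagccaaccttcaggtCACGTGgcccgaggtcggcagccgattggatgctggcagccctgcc
Sgsh: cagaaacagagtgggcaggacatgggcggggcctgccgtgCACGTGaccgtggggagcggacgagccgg
Gla: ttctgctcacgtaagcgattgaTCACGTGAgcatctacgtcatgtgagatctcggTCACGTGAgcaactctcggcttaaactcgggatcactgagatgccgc
Mcoln1: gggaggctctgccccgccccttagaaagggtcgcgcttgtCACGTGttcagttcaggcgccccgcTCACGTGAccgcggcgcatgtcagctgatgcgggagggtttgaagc
Cln3: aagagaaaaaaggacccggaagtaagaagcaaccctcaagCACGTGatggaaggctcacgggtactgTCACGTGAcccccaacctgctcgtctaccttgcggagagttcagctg
Atp6v1a: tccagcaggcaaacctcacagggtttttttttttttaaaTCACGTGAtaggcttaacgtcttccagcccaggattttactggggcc

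Among the hydrolases, Gusb, the β-glucuronidase that removes glucuronic acid from glycosaminoglycans, had the smallest adjusted p. In experiment 1, Gusb lay at 65.5, 60.6 and 54.3 CPM with AdCL and at 170.3, 172 and 195 CPM with AdTGFb1, and in experiment 3 at 104, 99.2 and 102 CPM with AdCL and at 171, 148 and 156 CPM with AdTGFb1. No AdTGFb1 library overlapped an AdCL library. The mean went from 80.8 ± 23.0 to 169 ± 16 CPM (SD, n = 6 each), which is 1.10 ± 0.15 (adjusted p = 6.85e-05) as a log2 fold change, and the gene passed in experiment 1 (1.57 ± 0.15, adjusted p = 1.38e-07) and in experiment 3 (0.64 ± 0.15, adjusted p = 0.00823).

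Man2b1, Asah1 and Hexa also rose. In experiment 1, Man2b1 lay at 196, 222 and 221 CPM with AdCL and at 443, 452 and 464 CPM with AdTGFb1, and in experiment 3 at 371, 296 and 289 CPM with AdCL and at 493, 429.6 and 451 CPM with AdTGFb1. Man2b1, the acid α-mannosidase that trims mannose from glycoproteins, did not overlap between vectors and rose by 0.81 ± 0.12 (adjusted p = 0.000124), in experiment 1 by 1.09 ± 0.13 (adjusted p = 3.38e-06) and in experiment 3 by 0.52 ± 0.13 (adjusted p = 0.0172). In experiment 1, Asah1 lay at 107, 118 and 109 CPM with AdCL and at 191, 206 and 212 CPM with AdTGFb1, and in experiment 3 at 174, 151 and 174 CPM with AdCL and at 238, 254 and 202 CPM with AdTGFb1. Asah1, the acid ceramidase, again showed no overlap and rose by 0.67 ± 0.11 (adjusted p = 0.000374), with 0.87 ± 0.14 (adjusted p = 8.79e-05) and 0.48 ± 0.14 (adjusted p = 0.0414) in the 2 experiments. In experiment 1, Hexa lay at 202, 195 and 175 CPM with AdCL and at 416, 366 and 384 CPM with AdTGFb1, and in experiment 3 at 351, 289 and 313 CPM with AdCL and at 430.2, 407 and 373 CPM with AdTGFb1. Hexa, the α subunit of β-hexosaminidase, which degrades gangliosides, did not overlap either and rose by 0.69 ± 0.13 (adjusted p = 0.000935), although within experiment 3 it gave 0.35 ± 0.13 (adjusted p = 0.135). Without the AdCL libraries of experiment 1, Hexa (log2 fold change 0.34, adjusted p = 0.162) and Asah1 (0.47, adjusted p = 0.0559) did not pass.

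Naglu and Sgsh rose, while Ids and Idua did not pass. Naglu, which removes N-acetylglucosamine from heparan sulfate, rose from 19.7 ± 7.6 to 41.9 ± 9.53 CPM (SD, n = 6 each), by 1.10 ± 0.25 (adjusted p = 0.00438). Sgsh, which removes sulfate from the same chain and shares 955 bases of exon with Card14 on the other strand, rose from 11.9 ± 5.97 to 22.2 ± 12.1 CPM (SD, n = 6 each), by 0.89 ± 0.28 (adjusted p = 0.0315). Ids and Idua, which act on iduronic acid residues and of which Idua overlaps Slc26a1 and Dgkq on the other strand, gave 0.35 ± 0.13 (adjusted p = 0.0704) and 0.51 ± 0.21 (adjusted p = 0.101). Naglu was not called without the AdCL libraries of experiment 1 (0.63, adjusted p = 0.157), and Sgsh neither with a term for sex (0.86, adjusted p = 0.0933), nor without those libraries (0.91, adjusted p = 0.0763), nor without any 1 of AdCL DC 7, 8, 944 or 949 or AdTGFb1 DC 54, 954 or 956 (adjusted p from 0.0504 to 0.0935).

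Arsb, the arylsulfatase B that removes sulfate from dermatan and chondroitin sulfate, moved the opposite way. In experiment 1, Arsb lay at 117, 66.4 and 99.9 CPM with AdCL and at 62.6, 50.8 and 41.1 CPM with AdTGFb1, and in experiment 3 at 102, 123 and 82.6 CPM with AdCL and at 57.2, 57.6 and 51.6 CPM with AdTGFb1. Every AdTGFb1 library was below every AdCL library. The mean went from 98.5 ± 21.2 to 53.5 ± 7.43 CPM (SD, n = 6 each), and the log2 fold change was -0.88 ± 0.16 (adjusted p = 0.000658), nearly equal in experiment 1 (-0.88 ± 0.21, adjusted p = 0.00427) and experiment 3 (-0.89 ± 0.21, adjusted p = 0.0119). Its exons overlap 2 noncoding genes on the other strand, Gm26527 over 1948 bases and Gm47210 over 463, and the sources used here do not give the strand setting of the counting. In experiment 1, Gla lay at 239, 203 and 242 CPM with AdCL and at 153, 143 and 139 CPM with AdTGFb1, and in experiment 3 at 116, 138 and 127 CPM with AdCL and at 139, 99.0 and 91.3 CPM with AdTGFb1. Gla, the α-galactosidase that acts on globotriaosylceramide and is X-linked, was highest in the male AdCL libraries, overlapped between vectors in experiment 3 and fell by 0.43 ± 0.13 (adjusted p = 0.0269). With sex in the model it was no longer called (-0.33, adjusted p = 0.171), nor was it called without the AdCL libraries of experiment 1 (-0.21, adjusted p = 0.552), nor without any 1 of AdCL DC 7, 9 or 944 or AdTGFb1 DC 14, 52, 54 or 956 (adjusted p from 0.0564 to 0.0839).

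The other 8 hydrolases gave 4 calls, all higher. Glb1, the β-galactosidase, lay at 8.79 ± 4.95 CPM with AdCL and 18.7 ± 3.62 CPM with AdTGFb1 (SD, n = 6 each) and rose by 1.26 ± 0.35 (adjusted p = 0.0186); it shares 165 bases of exon with Tmppe. Ppt1, which strips palmitate from proteins and shares 32 bases of exon with Cap1 on the other strand, rose by 0.72 ± 0.15 (adjusted p = 0.00298), Tpp1, a tripeptidyl peptidase, by 0.56 ± 0.15 (adjusted p = 0.0172), and Lipa, the acid lipase for cholesteryl esters and triglycerides, by 0.40 ± 0.12 (adjusted p = 0.025). Manba, the β-mannosidase, fell just short of passing, at 0.92 ± 0.31 (adjusted p = 0.0505) and was called in 11 of the 21 other settings tried. Gaa, which digests glycogen, Fuca1, which removes fucose, and Neu1, the sialidase, gave 0.40 ± 0.19 (adjusted p = 0.171), 0.24 ± 0.13 (adjusted p = 0.238) and 0.05 ± 0.12 (adjusted p = 0.822). With a term for sex Glb1 (1.05, adjusted p = 0.0648), Tpp1 (0.51, adjusted p = 0.0595) and Lipa (0.38, adjusted p = 0.0789) kept most of the log2 fold change but did not pass. Without the AdCL libraries of experiment 1 they did not pass either, at smaller values for Glb1 (0.36, adjusted p = 0.575), Tpp1 (0.26, adjusted p = 0.496) and Lipa (0.32, adjusted p = 0.297). Glb1 was also lost without AdCL DC 7 (adjusted p = 0.0541), Tpp1 without AdTGFb1 DC 54 (adjusted p = 0.0509) and Lipa without any 1 of AdCL DC 9 or AdTGFb1 DC 14 or 54 (adjusted p from 0.0528 to 0.0801).

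Of the luminal proteins Psap and Grn rose. Psap is the precursor of the saposins, which activate sphingolipid hydrolases. In experiment 1, Psap lay at 2068, 2030 and 2190 CPM with AdCL and at 4272, 3976 and 4766 CPM with AdTGFb1, and in experiment 3 at 3521, 2861 and 2889 CPM with AdCL and at 4260, 3553 and 3442 CPM with AdTGFb1. All but 1 AdTGFb1 library lay above every AdCL library, and the mean went from 2593 ± 596 to 4045 ± 495 CPM (SD, n = 6 each), by 0.67 ± 0.13 (adjusted p = 0.00185). Grn encodes progranulin, a secreted and lysosomal protein that is cut into granulins. In experiment 1, Grn lay at 197, 241 and 239.6 CPM with AdCL and at 665, 613 and 736 CPM with AdTGFb1, and in experiment 3 at 449, 305.4 and 437 CPM with AdCL and at 661, 597 and 557 CPM with AdTGFb1. The vectors did not overlap, and Grn rose by 1.09 ± 0.16 (adjusted p = 0.000128), in experiment 3 by 0.61 ± 0.15 (adjusted p = 0.0144). Npc2, which binds cholesterol in the lumen, differed less. In experiment 1, Npc2 lay at 307.6, 298.03 and 328 CPM with AdCL and at 413, 339.8 and 407 CPM with AdTGFb1, and in experiment 3 at 343, 319 and 368 CPM with AdCL and at 398, 375 and 333 CPM with AdTGFb1. Its log2 fold change was 0.21 ± 0.10 (adjusted p = 0.177). Psap was not called without the AdCL libraries of experiment 1 (0.28, adjusted p = 0.289).

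In the membrane, Lamp1 and Lamp2, which make up much of the inner sugar coat of lysosomes, and Cd63 rose. In experiment 1, Lamp1 lay at 259, 276 and 302.5 CPM with AdCL and at 674, 654 and 791 CPM with AdTGFb1, and in experiment 3 at 508, 397 and 447 CPM with AdCL and at 666, 572 and 468 CPM with AdTGFb1. Lamp1 lay above every AdCL library in 5 of 6 AdTGFb1 libraries, DC 956 being the exception, and rose by 0.83 ± 0.16 (adjusted p = 0.00148); it shares 177 bases of exon with Grtp1 on the other strand. In experiment 1, Lamp2 lay at 113, 148 and 131 CPM with AdCL and at 188, 222 and 227 CPM with AdTGFb1, and in experiment 3 at 203, 201 and 162 CPM with AdCL and at 223, 236 and 218 CPM with AdTGFb1. Lamp2, which is X-linked and takes part in autophagy, rose by 0.48 ± 0.12 (adjusted p = 0.0092). In experiment 1, Cd63 lay at 79.9, 66.8 and 97.2 CPM with AdCL and at 131, 118 and 156 CPM with AdTGFb1, and in experiment 3 at 101, 96.7 and 122 CPM with AdCL and at 125, 132 and 115 CPM with AdTGFb1. Cd63, a tetraspanin of late endosomes and lysosomes with a pseudogene copy in the annotation, rose by 0.47 ± 0.14 (adjusted p = 0.0229). None of the 3 passed within experiment 3, where Lamp1, Lamp2 and Cd63 gave 0.34 ± 0.15 (adjusted p = 0.211), 0.26 ± 0.15 (adjusted p = 0.373) and 0.22 ± 0.17 (adjusted p = 0.561). Without the AdCL libraries of experiment 1, Lamp1 (0.33, adjusted p = 0.243), Lamp2 (0.26, adjusted p = 0.369) and Cd63 (0.21, adjusted p = 0.526) did not pass. With sex in the model Lamp2 (0.35, adjusted p = 0.0738) and Cd63 (0.38, adjusted p = 0.116) did not, nor did Cd63 without any 1 of AdCL DC 7 or 8 or AdTGFb1 DC 14 or 54 (adjusted p from 0.051 to 0.0698).

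The other 7 membrane proteins did not pass. In experiment 1, Scarb2 lay at 173, 163 and 159 CPM with AdCL and at 199, 147 and 208 CPM with AdTGFb1, and in experiment 3 at 147, 141 and 146 CPM with AdCL and at 225, 168 and 219 CPM with AdTGFb1. Scarb2, which carries the glucocerebrosidase to the lysosome, gave 0.33 ± 0.12 (adjusted p = 0.0704). It was called higher with a term for sex, on total counts without scaling factors and without AdTGFb1 DC 52. In experiment 1, Npc1 lay at 135, 130.5 and 99.96 CPM with AdCL and at 189, 164 and 158 CPM with AdTGFb1, and in experiment 3 at 154, 93.7 and 119 CPM with AdCL and at 134, 108 and 146 CPM with AdTGFb1. Npc1, the cholesterol exporter, whose exons overlap Rmc1 and Gm15956 on the other strand, gave 0.28 ± 0.14 (adjusted p = 0.202). In experiment 1, Cd68 lay at 377, 349 and 386 CPM with AdCL and at 464, 467 and 543 CPM with AdTGFb1, and in experiment 3 at 502, 549 and 541 CPM with AdCL and at 465, 515 and 421 CPM with AdTGFb1. Cd68, a LAMP-like glycoprotein used as a marker of macrophages, was thus higher with AdTGFb1 in experiment 1 (0.41 ± 0.13, adjusted p = 0.0234), at -0.18 ± 0.13 (adjusted p = 0.495) in experiment 3 and at 0.11 ± 0.12 (adjusted p = 0.586) over both. Mcoln1, a calcium channel, Ctns, the cystine exporter, Laptm5, a transmembrane protein of blood cells, and Cln3, which overlaps Apobr, gave 0.32 ± 0.20 (adjusted p = 0.302), 0.16 ± 0.20 (adjusted p = 0.652), 0.10 ± 0.10 (adjusted p = 0.535) and 0.22 ± 0.24 (adjusted p = 0.605).

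**Figure D3:**
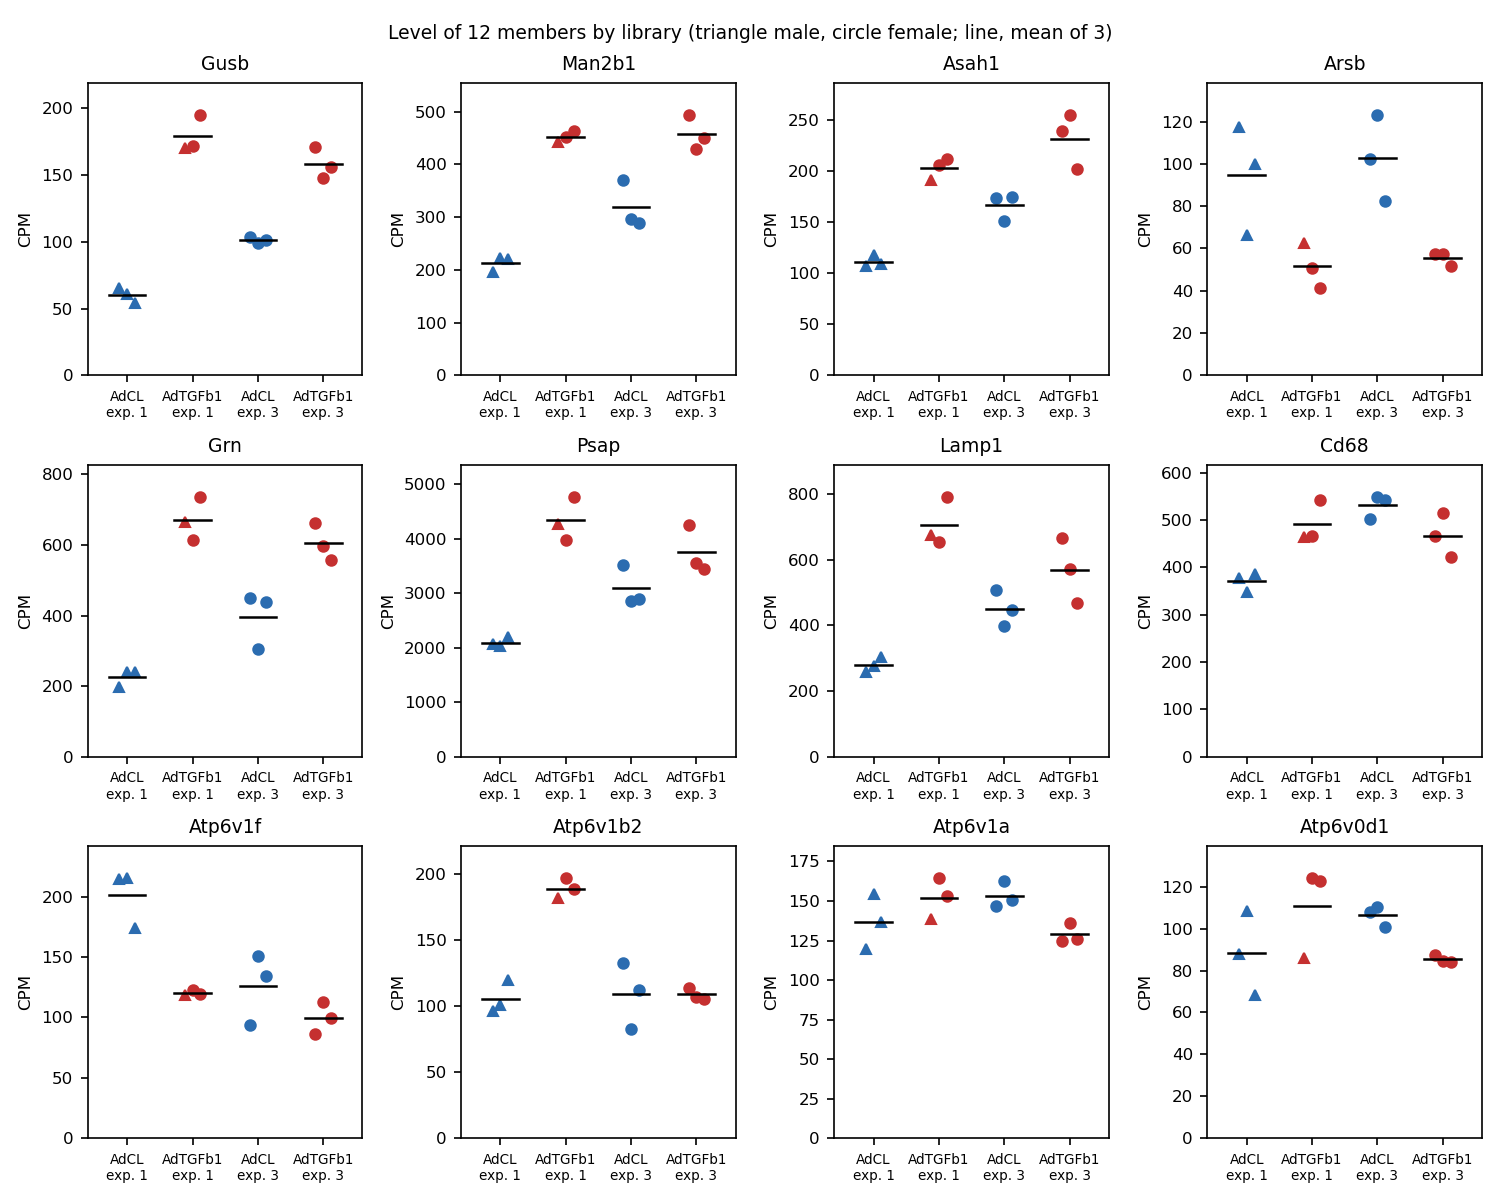
Level in CPM (y axes, from 0) of 12 members in each library by vector and experiment (x axes); males are triangles, females circles, and each line is the mean of 3. Gusb, Man2b1, Asah1 and Grn lie higher and Arsb lower with AdTGFb1 without overlap, the male AdCL libraries are lowest for Psap, Lamp1 and Cd68, and Atp6v1a and Atp6v0d1 lie lower with AdTGFb1 in experiment 3 and overlap in experiment 1.

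In the V1 sector of the pump, 1 of 8 genes fell (12.5%, beside 10.4% of all genes) and 0 rose. In experiment 1, Atp6v1f lay at 215, 215 and 174 CPM with AdCL and at 119, 123 and 119.7 CPM with AdTGFb1, and in experiment 3 at 94.1, 151 and 134 CPM with AdCL and at 86.0, 112 and 99.5 CPM with AdTGFb1. Atp6v1f, the F subunit of the central stalk, fell by 0.55 ± 0.13 (adjusted p = 0.00832), with the highest values in the male AdCL libraries. With sex in the model it was not called, though the log2 fold change was nearly as large (-0.48, adjusted p = 0.0515), nor without the AdCL libraries of experiment 1 (-0.35, adjusted p = 0.288). In experiment 1, Atp6v1b2 lay at 96.5, 100.5 and 119.6 CPM with AdCL and at 182, 196 and 188 CPM with AdTGFb1, and in experiment 3 at 133, 82.9 and 112 CPM with AdCL and at 114, 107 and 105 CPM with AdTGFb1. Atp6v1b2, the B subunit, stood apart in the AdTGFb1 libraries of experiment 1, at 0.84 ± 0.17 (adjusted p = 0.000718) there, -0.004 ± 0.17 (adjusted p = 0.995) in experiment 3 and 0.42 ± 0.16 (adjusted p = 0.0767) over both. In experiment 1, Atp6v1a lay at 119.9, 154 and 137 CPM with AdCL and at 139, 164 and 153 CPM with AdTGFb1, and in experiment 3 at 147, 163 and 150.4 CPM with AdCL and at 125, 136 and 126 CPM with AdTGFb1. Atp6v1a, the catalytic A subunit, gave -0.05 ± 0.12 (adjusted p = 0.82). Atp6v1c1, Atp6v1e1 and Atp6v1g1, of the outer stalks, gave 0.04 ± 0.14 (adjusted p = 0.901), 0.21 ± 0.15 (adjusted p = 0.38) and 0.19 ± 0.23 (adjusted p = 0.628). Atp6v1h, a regulatory subunit whose exons overlap Rgs20 on the other strand, gave -0.21 ± 0.17 (adjusted p = 0.468), and Atp6v1d, the D subunit of the central stalk, gave -0.36 ± 0.14 (adjusted p = 0.0897).

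No gene of the V0 sector passed; exons of Atp6v0b overlap Gm12841 on the other strand. Atp6v0a1, Atp6v0b, Atp6v0d1 and Atp6v0e gave 0.08 ± 0.17 (adjusted p = 0.804), -0.22 ± 0.11 (adjusted p = 0.211), 0.01 ± 0.15 (adjusted p = 0.989) and 0.18 ± 0.17 (adjusted p = 0.521). In experiment 3 Atp6v0d1, the d subunit, lay at 108, 110.1 and 101 CPM with AdCL and at 87.2, 84.6 and 84.0 CPM with AdTGFb1, without overlap. It did not pass there, at -0.32 ± 0.18 (adjusted p = 0.377), and 12.9% of all genes were likewise lower without overlap. In experiment 1 its vectors overlapped, at 0.33 ± 0.18 (adjusted p = 0.201). Atp6v0c, which encodes the proteolipid of the proton-carrying ring, had 27 counts in AdCL DC 9 and 0 in the other 11 libraries. A floor of 3 counts is 0.181 to 0.31 CPM in a library, and no fold change is given. The annotation lists pseudogene copies of this gene, Atp6v0c-ps1 and Atp6v0c-ps2, and the row of Atp6v0c-ps2 was at 0 in all libraries. What part such copies have in the low count was not tested.

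The accessory subunits, both X-linked, moved in opposite directions. In experiment 1, Atp6ap1 lay at 77.8, 80.0 and 57.0 CPM with AdCL and at 106, 103 and 117 CPM with AdTGFb1, and in experiment 3 at 82.4, 79.3 and 99.99 CPM with AdCL and at 105, 109 and 89.4 CPM with AdTGFb1. Atp6ap1, which aids assembly of the pump, rose by 0.41 ± 0.13 (adjusted p = 0.0413). In experiment 1, Atp6ap2 lay at 195, 156 and 172 CPM with AdCL and at 121, 128 and 117 CPM with AdTGFb1, and in experiment 3 at 170.2, 129 and 114 CPM with AdCL and at 109.7, 129.9 and 102 CPM with AdTGFb1. Atp6ap2, the prorenin receptor, fell by 0.40 ± 0.12 (adjusted p = 0.0329). Neither passed in experiment 3 (0.21 ± 0.17, adjusted p = 0.584, and -0.27 ± 0.16, adjusted p = 0.407). With a term for sex Atp6ap1 (0.33, adjusted p = 0.171) and Atp6ap2 (-0.36, adjusted p = 0.128) did not pass, nor without the AdCL libraries of experiment 1 (0.21, adjusted p = 0.541, and -0.28, adjusted p = 0.39). Atp6ap1 was lost without any 1 of AdCL DC 7, 8, 9, 943 or 944 or AdTGFb1 DC 14, 52, 54, 954 or 955 (adjusted p from 0.0503 to 0.105), and Atp6ap2 without any 1 of AdCL DC 7, 8, 9 or 943 or AdTGFb1 DC 14, 52, 54, 954 or 956 (adjusted p from 0.0502 to 0.107). Of the 5 X-linked members, Lamp2 and Atp6ap1 rose, Gla and Atp6ap2 fell and Ids was not called. With sex in the model none of these 4 passed, at log2 fold changes of 0.35, 0.33, -0.33 and -0.36, beside 0.48, 0.41, -0.43 and -0.40 without it.

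More members were called in experiment 1 than in experiment 3, and for 35 of 45 the log2 fold change was the more positive in experiment 1, beside 6437 of all 13221 genes. The median difference, experiment 3 minus experiment 1, was -0.392 for members and 0.025 for all genes. In experiment 1, 19 of 45 members rose and 5 fell, beside 10.6% and 14.1% of all genes. On total counts 31 members rose and 2 fell there, while the median of all genes moved from -0.026 to 0.214. Calls over all genes went from 3264 to 3648. Relative to the median of all genes, that of the hydrolases was 0.889 with scaling factors and 0.89 on total counts. In experiment 3, 4 rose (Gusb, Man2b1, Asah1 and Grn) and 1 fell (Arsb), beside 1.97% and 4.46%, and all 5 had moved the same way in experiment 1. Vectors did not overlap in 26 members that were higher and 6 that were lower in experiment 1, beside 18.8% and 21.6% of genes, and in 9 and 4 in experiment 3, beside 11.5% and 12.9%. Median log2 fold changes were 0.48 and 0.15 for all members, 0.86 and 0.33 for hydrolases, 0.33 and 0.20 for membrane proteins and 0.24 and -0.21 for the V-ATPase, of which 12 of 14 were negative in experiment 3 (10 on total counts). The 5 members that fell in experiment 1 became 2 without AdCL DC 7 and 3 without AdCL DC 9 or AdTGFb1 DC 14 or 54. The 4 that rose in experiment 3 became 1 without AdCL DC 944 or AdTGFb1 DC 954 and 2 without AdCL DC 949, and the call of Arsb there was lost without AdCL DC 944 or AdTGFb1 DC 956.

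The difference between the experiments was tested as an interaction, the effect in experiment 3 minus that in experiment 1. It passed for 7 of 45 members with a smaller value in experiment 3, beside 2.59% of genes, and for 0 with a larger one, beside 3.43%. These were Lamp1 at -1.0 ± 0.21 (adjusted p = 0.00484), Grn at -0.96 ± 0.21 (adjusted p = 0.00787), Gusb at -0.93 ± 0.21 (adjusted p = 0.00819), Psap at -0.77 ± 0.18 (adjusted p = 0.0102), Hexa at -0.68 ± 0.18 (adjusted p = 0.0296), Atp6v1b2 at -0.84 ± 0.23 (adjusted p = 0.0335) and Glb1 at -1.83 ± 0.54 (adjusted p = 0.0447). The count was 4 without AdTGFb1 DC 54, AdCL DC 943 or AdTGFb1 DC 956 and 0 with a term for sex. Interaction calls over all genes also went down, from 796 to 551, 594 and 570 without these libraries, in that order. With a term for sex they went to 157. That term rests on the AdTGFb1 libraries of experiment 1, 1 male and 2 female, the only group with both sexes. Arsb, by contrast, gave -0.01 ± 0.30 (adjusted p = 0.992). Markers of alveolar macrophages also differed between the experiments, but their sum was lower with AdTGFb1 in experiment 3 and not only less raised. Their summed level was 119.7 to 221 CPM in AdCL and 1230 to 2473 CPM in AdTGFb1 libraries of experiment 1 and 283 to 724 and 129 to 168 CPM in experiment 3, with 0 of 11 called over both experiments. Their part in the difference was not tested.

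Within 1 vector, the experiments differed more under AdCL than under AdTGFb1 in the number of calls, a difference that the interaction above tests per gene. These comparisons share libraries with the ones above. From experiment 1 to experiment 3, 12 of 45 members were higher and 2 lower in AdCL libraries, beside 4.13% and 4.89% of genes, with a median log2 difference of 0.37. The AdCL libraries of experiment 1 also stood apart in other values: summed markers were 218 to 641 CPM for endothelium (10 genes), beside 65.2 to 175 CPM in the other 9 libraries, and 111 to 286 CPM for fibroblasts (9 genes), beside 31.0 to 106 CPM, with no marker of either list at 0 throughout. Epithelial markers (9 genes) overlapped, at 132 to 501 beside 93.0 to 292 CPM. Rn45s, the ribosomal RNA precursor, took 7.44% to 8.33% of counts in them, beside 3.92% to 4.77% in AdCL libraries of experiment 3. In AdTGFb1 libraries it took 5.60% to 7.46%, a range that overlapped with that of AdCL libraries of experiment 1. TMM factors were 0.881 to 0.919 in AdCL libraries of experiment 1, beside 0.933 to 1.03 in those of experiment 3. Their part in these differences was not tested. Members higher in AdCL libraries of experiment 3 included Hexa (0.73 ± 0.13, adjusted p = 0.00118), Grn (0.81 ± 0.15, adjusted p = 0.00159), Gusb (0.76 ± 0.15, adjusted p = 0.00248), Lamp1 (0.69 ± 0.15, adjusted p = 0.00442) and Cd68 (0.52 ± 0.13, adjusted p = 0.0128), and those lower were Gla (-0.85 ± 0.16, adjusted p = 0.002) and Atp6v1f (-0.67 ± 0.17, adjusted p = 0.0156). In AdTGFb1 libraries 1 was higher (Sgsh, 1.28 ± 0.39, adjusted p = 0.0417) and 1 lower (Atp6v1b2, -0.79 ± 0.17, adjusted p = 0.00387), beside 4.61% and 3.20%, with a median of -0.11. With a term for sex, 0 members were called higher or lower between experiments under AdCL. Calls over all genes in that comparison went from 1193 to 58 with this term. Without AdCL DC 7, 8, 943 or 949, 1 member was lower there. Sgsh was not called in AdTGFb1 libraries without AdTGFb1 DC 14, 52, 954 or 956 or AdCL DC 949.

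Levels of different genes were compared per length, as CPM per kilobase of exon over all 12 libraries. Psap was highest at 1210, followed by Cd68 at 369.9, Laptm5, Lamp1 at 225, Grn at 203 and Hexa at 163. The most abundant pump gene was Atp6v1f at 129, and Atp6v0b followed at 81.8. Hydrolases ran from Hexa down to Glb1 at 5.74 and Sgsh at 3.91, and membrane proteins from Cd68 down to Cln3 at 7.85. On this scale, among the 6 highest members, Cd68 and Laptm5 did not pass over both experiments while Psap, Lamp1, Grn and Hexa rose.

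**Figure D4:**
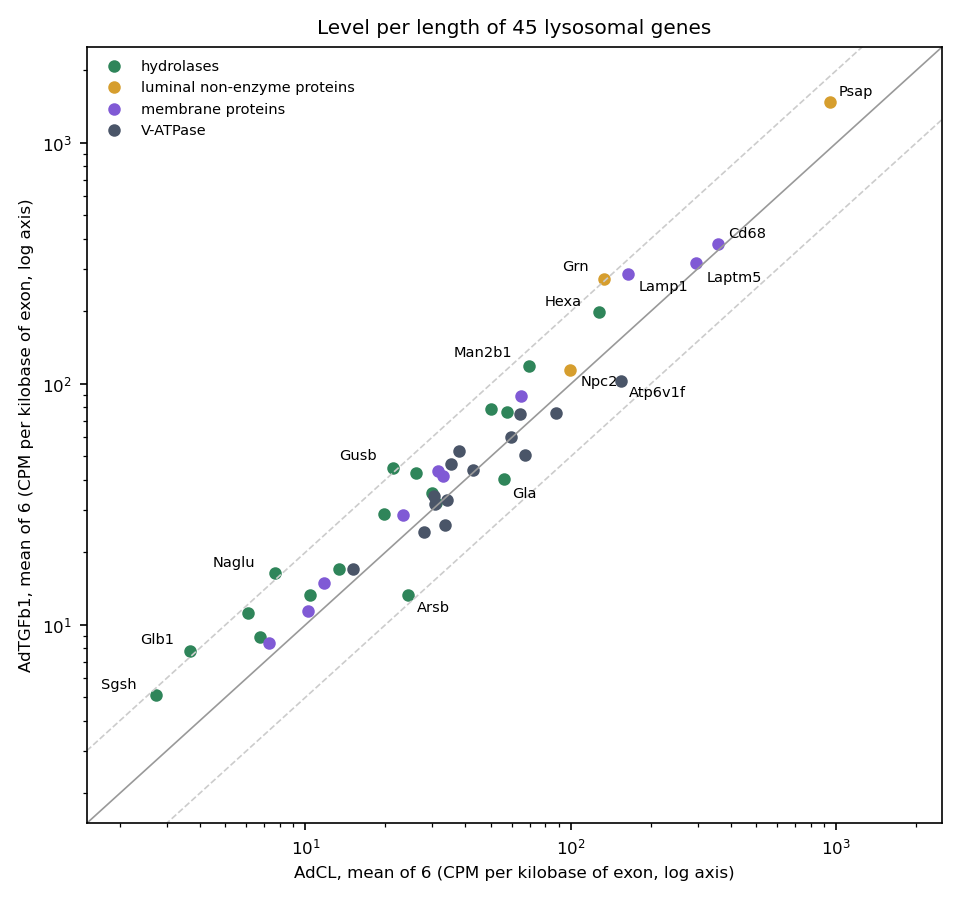
Mean level per length of the 45 members tested, in CPM per kilobase of exon on log axes, in the 6 AdCL (x axis) and the 6 AdTGFb1 libraries (y axis); the solid line marks equal levels, the dashed lines a change of 2-fold, and colours give the class. Psap lies highest, Grn, Gusb, Naglu and Glb1 lie at or near the upper dashed line, and the V-ATPase genes lie on both sides of the solid line.

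Other genes of the lysosome were counted in 5 further lists. Beside 6.78% of all genes higher and 10.4% lower, 15 of 29 other hydrolases and activators rose (51.7%) and 0 fell (median 0.65), and 8 of 30 other membrane proteins rose (26.7%) and 2 fell (6.67%, median 0.28). Other V-ATPase subunits and assembly factors gave 2 higher of 12 tested (16.7%, median 0.37) and 0 lower. Sorting to the lysosome, with 2 of 22 higher (9.09%) and 1 lower (4.55%, median 0.20), and nutrient sensing at the lysosome, with 2 of 18 higher (11.1%) and 0 lower (median 0.15), lay near the shares of all genes for higher calls. In experiment 1, 17 of the 29 hydrolases and activators (58.6%) and 7 of the 30 membrane proteins (23.3%) rose, beside 10.6% of genes. In experiment 3 it was 3 (10.3%) and 0, beside 1.97%, with medians of 0.26 and 0.31. Of the membrane proteins 3 fell in experiment 1 (10%, beside 14.1%) and 1 in experiment 3 (3.33%, beside 4.46%). These lists were not counted with a term for sex or without the AdCL libraries of experiment 1. Pla2g15, the lysosomal phospholipase, rose by 1.09 ± 0.15 (adjusted p = 6.83e-05). Slc36a1, an amino acid exporter, rose by 1.05 ± 0.27 (adjusted p = 0.0107), while Slc15a3, a peptide transporter, went from 673 ± 83.8 to 463 ± 81.0 CPM (SD, n = 6 each) without overlap, at -0.55 ± 0.10 (adjusted p = 0.000814). Nagpa, which finishes the sugar tag by which hydrolases are sorted, rose by 0.69 ± 0.17 (adjusted p = 0.00768), and Vps16, of the tethering complexes, was lower without overlap at -0.56 ± 0.13 (adjusted p = 0.00686).

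Outside the members, the pump showed changes in Atp6v0a2 and Dmxl2. Atp6v0a2, another form of the V0 a subunit, went from 61.5 ± 13.4 to 118 ± 13.0 CPM (SD, n = 6 each) without overlap, by 0.95 ± 0.15 (adjusted p = 0.000194), and passed in experiment 3 (0.65 ± 0.18, adjusted p = 0.029). Dmxl2, which regulates the pump, rose over both experiments by 1.11 ± 0.36 (adjusted p = 0.0403) and differed between them, with 2.18 ± 0.33 (adjusted p = 3.3e-05) in experiment 1 and 0.07 ± 0.31 (adjusted p = 0.949) in experiment 3 (interaction adjusted p = 0.00573). Among the transcription factors that bind the E-box, Mitf rose from 54.1 ± 26.1 to 113 ± 17.3 CPM (SD, n = 6 each), by 1.15 ± 0.23 (adjusted p = 0.00167), with 1.898 ± 0.20 (adjusted p = 4.58e-07) in experiment 1, 0.42 ± 0.19 (adjusted p = 0.236) in experiment 3 and an interaction (adjusted p = 0.00234). Tfec, at 3.01 and 16.3 CPM on average, rose over both experiments by 2.37 ± 0.55 (adjusted p = 0.00515). It passed in experiment 1 (3.38 ± 0.67, adjusted p = 0.000741) and not in experiment 3 (1.40 ± 0.62, adjusted p = 0.224). In experiment 3 it lay at 7.02, 1.47 and 3.22 CPM with AdCL and at 21.6, 4.79 and 4.47 CPM with AdTGFb1. Tfeb and Tfe3 did not pass, at 0.21 ± 0.15 (adjusted p = 0.374) and 0.11 ± 0.14 (adjusted p = 0.645). Lamp3, another gene of the LAMP family, averaged 0.637 and 1.1 CPM (-0.76 ± 1.60, adjusted p = 0.8). It ran from 0 to 1.49 CPM with AdCL and from 0 to 2.48 CPM with AdTGFb1, near the floor, so no direction is read from it. The estimates were -3.91 ± 2.08 (adjusted p = 0.181) in experiment 1 and 1.46 ± 1.74 (adjusted p = 0.738) in experiment 3.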

How the data were processed

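RNA of 12 libraries was measured. Per the labels' protocols, 500 ng of total RNA was taken through poly(A) selection and a directional kit with 10 PCR cycles. Trim Galore 0.4.1, cutadapt 1.9.1, STAR 2.5.0c, HTSeq, DESeq2 and build mm9 stand in the submitters' processing notes without role or order, and the sources used here do not give annotation or strand setting. The authors deposited raw read counts per gene symbol.

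From these counts, edgeR 4.0.16 in R 4.3.3 (limma 3.58.1) fitted all 13221 genes left by filterByExpr, with TMM, the quasi-likelihood F test (two-sided) and Benjamini-Hochberg adjustment over all of them, threshold 0.05. The vector was tested over both experiments with the experiment as a term, and in a model of 4 groups within each experiment, as an interaction, and between experiments. SE is the effect over the square root of F. Exon lengths, overlaps and X linkage came from GENCODE M21, of another build, from which no coordinates are printed.

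The members and lists were chosen with earlier results of these data known. The rule for values in every library took the 4 smallest adjusted p per class, the luminal proteins, members that fell, the 4 strongest interactions and 7 fixed genes; Hexa and the experiment 3 values of Atp6v0d1 were added after they were seen. For other lists it took up to 2 genes each, Tfeb, Tfe3, Mitf and Lamp3. A gene that this rule named is not reported here. Scripts were tested on simulated data. Alternatives were DESeq2 1.42.0, other scalings and filters, a term for sex, no term for the experiment and leaving out libraries. Intervals of counting are not given, and floors cover counting error only.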

Additional observations from a re-analysis of the deposited data

Results flagged for a closer look

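The effect of AdTGFb1 in experiment 3 differed from that in experiment 1 for 7 members by edgeR's test of the interaction, each smaller in experiment 3 (log2 difference with SE). The values were -1.0 ± 0.21 (adjusted p = 0.00484) for Lamp1, -0.96 ± 0.21 (adjusted p = 0.00787) for Grn, -0.93 ± 0.21 (adjusted p = 0.00819) for Gusb, -0.77 ± 0.18 (adjusted p = 0.0102) for Psap, -0.68 ± 0.18 (adjusted p = 0.0296) for Hexa, -0.84 ± 0.23 (adjusted p = 0.0335) for Atp6v1b2 and -1.83 ± 0.54 (adjusted p = 0.0447) for Glb1. For Lamp1 the AdCL means were 279 and 451 CPM in experiments 1 and 3 and the AdTGFb1 means 706 and 568 CPM. For Atp6v1b2 the AdCL means were 106 and 109 CPM and the AdTGFb1 means 189 and 109 CPM. Of the 7, 0 passed with a term for sex, which rests on AdTGFb1 DC 14 against DC 52 and 54, the 1 group with both sexes.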

How the results depend on the processing

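No paired analysis was possible because the DC numbers do not repeat between groups. Of the 20 members called over both experiments, 5 (Gusb, Man2b1, Ppt1, Arsb and Grn) were called under all 21 alternatives, 12 in every fit that left out 1 library, 10 with a term for sex and 5 without the AdCL libraries of experiment 1, an alternative chosen after seeing the data. Main counts over both experiments were 16 members higher and 4 lower, 10 and 2 for hydrolases, 3 higher for membrane proteins and 1 and 2 for the V-ATPase. With a term for sex they were 10 and 1, 6 and 1 for hydrolases, and 0 and 0 for the V-ATPase, and without the AdCL libraries of experiment 1 they were 4 and 1, 3 and 1, 0 for membrane proteins and 0 and 0. The 10 higher with a term for sex include Scarb2, which is not among the 20 called members. On total counts without scaling, 2 members were lower, 1 hydrolase was lower, 5 membrane proteins were higher, and the V-ATPase gave 2 and 1. With no term for the experiment, 2 members were lower, 1 hydrolase was lower, and the V-ATPase gave 0 and 1. DESeq2 and a filter of at least 1 count in any library each gave 2 V-ATPase genes higher, and DESeq2 gave 7 members higher in experiment 3 in place of 4. In experiment 1, total counts gave 31 higher and 2 lower in place of 19 and 5, and a term for sex 12 and 0. Calls over all genes in experiment 1 were 3648 on total counts and 1296 with a term for sex, in place of 3264. The term for sex also took the interaction from 7 to 0, experiment 3 against 1 under AdCL from 12 and 2 to 0 and 0, and that under AdTGFb1 from 1 to 0 higher. Over all genes it took these calls from 796 to 157, from 1193 to 58 and from 1032 to 976. Leaving out 1 library gave 2 to 4 members lower, 1 to 2 hydrolases lower, 0 to 2 V-ATPase genes higher and 1 to 2 lower, 2 to 5 lower in experiment 1, 1 to 5 higher and 0 to 1 lower in experiment 3, 4 to 8 for the interaction, 1 to 2 lower under AdCL, and 0 to 1 higher and 1 to 2 lower under AdTGFb1. Medians went from 0.324 to 0.487 on total counts and 0.142 without the AdCL libraries of experiment 1 for members, from 0.617 to 0.781 and 0.322 for hydrolases, from 0.302 to 0.467 on total counts for membrane proteins, and from 0.02 to 0.187 and -0.213 for the V-ATPase. Total counts moved the median of all genes to 0.165, and relative to it the medians were 0.616, 0.301 and 0.022 for hydrolases, membrane proteins and the V-ATPase. Members that were not called changed sign: with a term for sex Cd68 (-0.009), Atp6v0a1 (-0.052), Atp6v0d1 (-0.224) and Atp6v1c1 (-0.018). Without the AdCL libraries of experiment 1 these gave -0.19, -0.237, -0.323 and -0.059, and Atp6v0e -0.145, Atp6v1b2 -0.006 and Atp6v1g1 -0.284. On total counts Atp6v1a gave 0.117. Leaving out 1 library, Atp6v0a1 ranged from -0.043 to 0.168, Atp6v0d1 from -0.08 to 0.078, Atp6v1a from -0.095 to 0.021 and Atp6v1c1 from -0.043 to 0.106. The cause was not tested. Over all genes, calls over both experiments fell from 2271 to 1501 with a term for sex and 882 without those AdCL libraries. Atp6v0c was not tested, since it had counts in 1 library.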
